A study of Mus musculus with 37 samples.

Results

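The piRNA pathway genes described here, 10 of the 24318 genes in each deposited table, were followed in mouse primordial germ cells (PGCs) that lacked the maintenance DNA methyltransferase Dnmt1. They were taken by symbol from a list: Piwil2, Piwil4, Mov10l1, Mael, Asz1, Tdrd1, Tdrd5, Tdrd9, Gpat2 and Fkbp6. All 10 symbols had a row at both stages. The mutant group, called DCKO, was labelled Dnmt1 -/- and the control group wild type. Embryos came from Dnmt1 2lox homozygous mothers that carried the Oct4-IRES-Gfp reporter, crossed to males with Blimp1-Cre, a driver active in PGCs. From this cross each embryo, controls included, receives a 2lox allele from its mother. The labels do not say whether controls carried the Cre. Sorted GFP-positive PGCs gave amplified polyadenylated RNA. E10.5 and E11.5 give the embryonic day. The E10.5 set held 3 DCKO libraries (2 female and 1 male) and 4 control libraries (2 per sex). The E11.5 set held 10 DCKO libraries (6 female and 4 male) and 8 control libraries (4 per sex). A further 12 samples, from E13.5, are not analysed here. No label states that libraries of 1 group are separate embryos, and the p-values cover only the spread among these libraries, part of which may be technical.

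The piRNA pathway silences transposons in germ cells. PIWI proteins carry small RNAs, the piRNAs, which are cut from long precursor transcripts by a machinery anchored on mitochondria and held together by Tudor domain proteins. In mouse fetal testes the nuclear PIWI protein directs new DNA methylation onto transposons, at a stage later than those studied here. Several genes of the pathway have CpG-rich promoters that carry DNA methylation outside the germ line, and PGCs lose most of their DNA methylation during the days sampled here. The question the comparison addresses is whether transcripts of these genes differ when the enzyme that copies methylation to the new DNA strand is deleted.

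Because the deleted enzyme acts on CG dinucleotides, the promoter sequences are shown first. RefSeq windows of 300 bases (250 before and 50 after each start site, GRCm38.p6) were found for 9 of the 10 genes, 13 windows in all, with more than 1 start for Fkbp6, Piwil4 and Tdrd1. Piwil2 is named only. The deposited values were made on build mm9 and hold no coordinates, so the windows are not linked to the measured transcripts. The windows held a median of 20 CG dinucleotides, against a median of 7 over all 32851 windows in the table (quartiles 3 and 20). The count ran from 48 in Tdrd5 down to 0 in the second window of Piwil4. The first windows of Gpat2 and Asz1, genes of mitochondrial proteins whose groups did not overlap at E10.5, held 15 and 17 and are printed with each CG in capitals.
Gpat2 (chr2:127424949-127425248, plus strand): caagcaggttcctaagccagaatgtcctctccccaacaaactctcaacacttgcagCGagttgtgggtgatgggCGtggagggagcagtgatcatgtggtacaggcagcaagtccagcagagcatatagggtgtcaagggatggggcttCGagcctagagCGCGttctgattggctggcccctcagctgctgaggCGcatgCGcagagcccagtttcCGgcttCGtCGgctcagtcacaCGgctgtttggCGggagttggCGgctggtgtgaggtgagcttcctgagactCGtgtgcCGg
Asz1 (chr6:18109012-18109311, minus strand): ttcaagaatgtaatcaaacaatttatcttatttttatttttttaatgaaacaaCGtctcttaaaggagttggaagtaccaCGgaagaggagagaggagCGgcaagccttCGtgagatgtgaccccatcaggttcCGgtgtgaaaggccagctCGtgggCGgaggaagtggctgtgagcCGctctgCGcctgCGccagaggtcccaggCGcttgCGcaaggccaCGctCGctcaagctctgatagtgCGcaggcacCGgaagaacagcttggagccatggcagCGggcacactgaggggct
The E-box CACGTG, a palindrome bound by MAX-containing dimers, was searched as those letters, which read the same on both strands. It was present in 5 of the 9 genes with a window (55.6%), against 8.09% of all 27025 genes with a window. Per window it was in 53.8% of the 13 windows, against 7.15% of all windows and 10.9% of windows with at least 10 CG. Windows 1 and 2 of Fkbp6 overlap and share their E-boxes, as do windows 1 and 2 of Tdrd1. The share per window therefore holds the same sites more than once. The stretches around it are shown with the E-box in capitals, one for each E-box in the first window of the gene. The stretch of Mov10l1 is shorter because its E-box lies at the edge of the window.
Mov10l1 (chr15:88982744-88982780, plus strand): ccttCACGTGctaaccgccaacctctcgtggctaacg
Mael (chr1:166238935-166238994, minus strand): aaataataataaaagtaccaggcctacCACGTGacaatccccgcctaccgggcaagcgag
Tdrd1 (chr19:56826171-56826230, plus strand): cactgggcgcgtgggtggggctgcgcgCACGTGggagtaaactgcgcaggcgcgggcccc
Tdrd9 (chr12:111971367-111971426, plus strand): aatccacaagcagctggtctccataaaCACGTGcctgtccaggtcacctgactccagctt
Tdrd9 (chr12:111971437-111971496, plus strand): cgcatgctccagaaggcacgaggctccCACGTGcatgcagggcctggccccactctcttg
Fkbp6 (chr5:135350113-135350172, minus strand): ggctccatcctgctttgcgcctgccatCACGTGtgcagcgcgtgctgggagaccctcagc
Fkbp6 (chr5:135350049-135350108, minus strand): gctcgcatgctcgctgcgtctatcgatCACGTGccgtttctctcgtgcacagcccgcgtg
Fkbp6 and Tdrd9 each held the E-box at 2 places. The letters TCCCGC, the core of an E2F site, searched on both strands, were in 3 windows (Tdrd5, Mael and Gpat2), which is 23.1% of 13 windows, against 19.98% of all windows. Of windows with at least 10 CG, 40.3% held these letters. Both motifs contain a CG, which is also part of the CG counts. A match describes these letters only, and Asz1 and Piwil4 held neither motif in any window.

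Values are RPKM, reads scaled by transcript length and library size, and levels are set side by side between genes as a description only. Whether the amplification of the RNA altered the order of genes was not tested. Differences are estimates on the log2(RPKM + 1) scale from limma, with Benjamini-Hochberg adjustment over all genes tested. Tested were genes that averaged 1 RPKM or more over a table, and adjusted p under 0.05 was a call. At E10.5 8 of the 10 genes were tested, since Piwil4 and Tdrd9 lay below the filter. At E11.5 9 were tested, all but Piwil4. Tdrd9 averaged 1.68 RPKM in E11.5 DCKO libraries and 0.585 RPKM in controls, so it passed the filter only through its DCKO level. The filter thus favoured an estimate above 0 for Tdrd9, in every E11.5 count that holds it.

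The sorted cells had germ cell RNA at both stages: all 11 germ cell markers averaged at least 1 RPKM in each table. At E10.5 their mean log2(RPKM + 1) was 6.54 to 7.07 in DCKO libraries and 6.58 to 7.21 in control libraries. At E11.5 it was 5.26 to 6.70 in DCKO libraries and 3.70 to 6.96 in control libraries. The sum of somatic markers (gonadal soma, mesenchyme, endothelium, red cells and macrophages) was 42.2 to 2166 RPKM in E11.5 DCKO libraries and 60.3 to 3162 RPKM in E11.5 controls. At E10.5 it was 85.9 to 2287 RPKM in DCKO and 73.4 to 1213 RPKM in controls. The libraries male control 3, female DCKO 4 and male DCKO 1 had both the highest mean somatic marker level and the lowest mean germ cell marker level at E11.5. The genotype estimates of the 9 genes tested at E11.5, and their count above 0, are therefore also given without male control 3 alone and without these 3 libraries together. In bulk samples fewer germ cells and less RNA per germ cell cannot be told apart. Dnmt1 itself was 14.9 to 29.6 RPKM in E10.5 DCKO libraries and 74.1 to 107 RPKM in controls. At E11.5 it was 13.0 to 59.4 RPKM in DCKO and 72.9 to 296 RPKM in controls. The groups did not overlap at either stage. Its log2 difference was -2.07 at both stages, with an adjusted p of 0.0355 at E11.5 and 0.991 at E10.5. Over 30 alternatives at E11.5 the adjusted p ran from 9.7e-04 to 0.702, with the estimate between -2.31 and -1.85.

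At E10.5 most of the genes had higher estimates in DCKO. Of the 8 genes tested, 7 had estimates above 0, against 46.8% of all 11584 genes tested. Their median log2 difference was 1.27, against -0.05 over all genes. Counts of 7 to 8 and medians of 0.93 to 1.44 held when any of the 7 libraries was left out. The summed level of the 10 genes was 317 to 339.6 RPKM in DCKO libraries and 123 to 256 RPKM in controls, with no overlap. Fkbp6 alone averaged 165 RPKM of a mean sum of 327 RPKM in DCKO, and 113 RPKM of 186 RPKM in controls. The sum thus rests largely on 1 gene. No such sum was computed for other genes, so its lack of overlap has no background. Single genes did not pass the test: 0 of the 8 were called by limma, as were 0 of all genes (0%). Without adjustment, 2 genes, Gpat2 and Mov10l1, had p under 0.05 and were higher in DCKO, against 1.49% of all genes. Over all genes 358 had p under 0.05 in either direction.

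The mitochondrial proteins included the greatest E10.5 estimate of the 8. Gpat2, a mitochondrial membrane protein that binds Piwil2, was at 50.8, 16.6 and 13.3 RPKM in female DCKO 1, female DCKO 2 and male DCKO 1. Its level was 2.00 and 3.19 RPKM in the female controls and 3.15 and 7.17 RPKM in the male controls. Every DCKO library was above every control library, and female DCKO 1 stood far above the other DCKO libraries. The log2 difference was 2.37 ± 0.68 (SE; unadjusted p = 0.00725, adjusted p = 0.991 by limma), and between 1.80 and 3.09 when 1 library was left out. Asz1, a scaffold on the outer mitochondrial membrane, had 32.3, 44.7 and 20.8 RPKM in DCKO libraries. In controls it had 9.71 and 19.4 RPKM in females and 2.63 and 19.5 RPKM in males. The groups did not overlap, but the lowest DCKO library lay close to the highest control. The log2 difference of Asz1 was 1.38 ± 0.65 (SE), and between 0.96 and 1.80 when 1 library was left out.

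Mov10l1, the RNA helicase that feeds precursor transcripts into processing, had 24.1, 27.8 and 39.3 RPKM in DCKO libraries. In controls it had 23.0 and 11.1 RPKM in females and 9.08 and 6.70 RPKM in males. All DCKO libraries were above all controls, with female control 1 just below the DCKO range. The log2 difference was 1.27 ± 0.52 (SE; unadjusted p = 0.0383, adjusted p = 0.991 by limma). It was 0.66 without male DCKO 1 and at most 1.67 with another library left out, and the unadjusted p stayed under 0.05 only without female DCKO 1 or female control 1. So 3 of the 8 genes tested (Gpat2, Asz1 and Mov10l1) had every DCKO library above every control, against 2.28% of all genes tested.

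Piwil2, the cytoplasmic PIWI protein, had 46.2, 27.1 and 30.3 RPKM in DCKO libraries. In controls it had 19.8 and 30.8 RPKM in females and 4.84 and 23.4 RPKM in males. The groups overlapped through female control 2, and the log2 difference was 0.86 ± 0.59 (SE), and 0.45 without male control 1. Piwil4, the nuclear PIWI protein, was at most 0.593 RPKM in any E10.5 library and was listed at 0 in 2 of 3 DCKO and 2 of 4 control libraries.

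Among the Tudor proteins, Tdrd9, an ATPase that works with Piwil4, had a low level but no overlap. It was at 0.980, 0.551 and 1.50 RPKM in DCKO libraries and at 0.0156, 0.135, 0.234 and 0.201 RPKM in controls, below the filter and so untested. The share of genes below the filter with no overlap was not computed. Tdrd1, a scaffold that binds Piwil2, varied widely: 0.199, 6.72 and 12.2 RPKM in DCKO libraries. In controls it was 0.350 and 1.05 RPKM in females and 0.211 and 2.95 RPKM in males. The groups overlapped because female DCKO 1 was at control level, and the log2 difference was 1.56 ± 0.90 (SE). It was 0.87 without male DCKO 1 and 2.41 without female DCKO 1. Tdrd5, needed for transposon silencing and spermatid formation in mice, was the exception in direction. It had 7.49 to 9.15 RPKM in DCKO libraries and 6.68 to 19.5 RPKM in controls, a log2 difference of -0.17 ± 0.52 (SE).

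Mael, a factor of transposon silencing and piRNA precursor handling, had 32.5, 21.7 and 11.8 RPKM in DCKO libraries. In controls it had 7.64 and 11.6 RPKM in females and 0.412 and 25.1 RPKM in males. The groups overlapped through male control 2, and the log2 difference was 1.27 ± 0.92 (SE). It was 0.59 without male control 1 and 1.99 without male control 2. Fkbp6, a co-chaperone that helps load piRNAs into PIWI proteins, was the highest of the 10 at this stage, at 129.7, 185 and 179 RPKM in DCKO libraries. In controls it had 52.5 and 79.2 RPKM in females and 163 and 159 RPKM in males. Female controls were below all DCKO libraries and male controls within their range. The log2 difference of Fkbp6 was 0.81 ± 0.37 (SE), and between 0.56 and 1.25 when 1 library was left out.

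**Figure D1:**
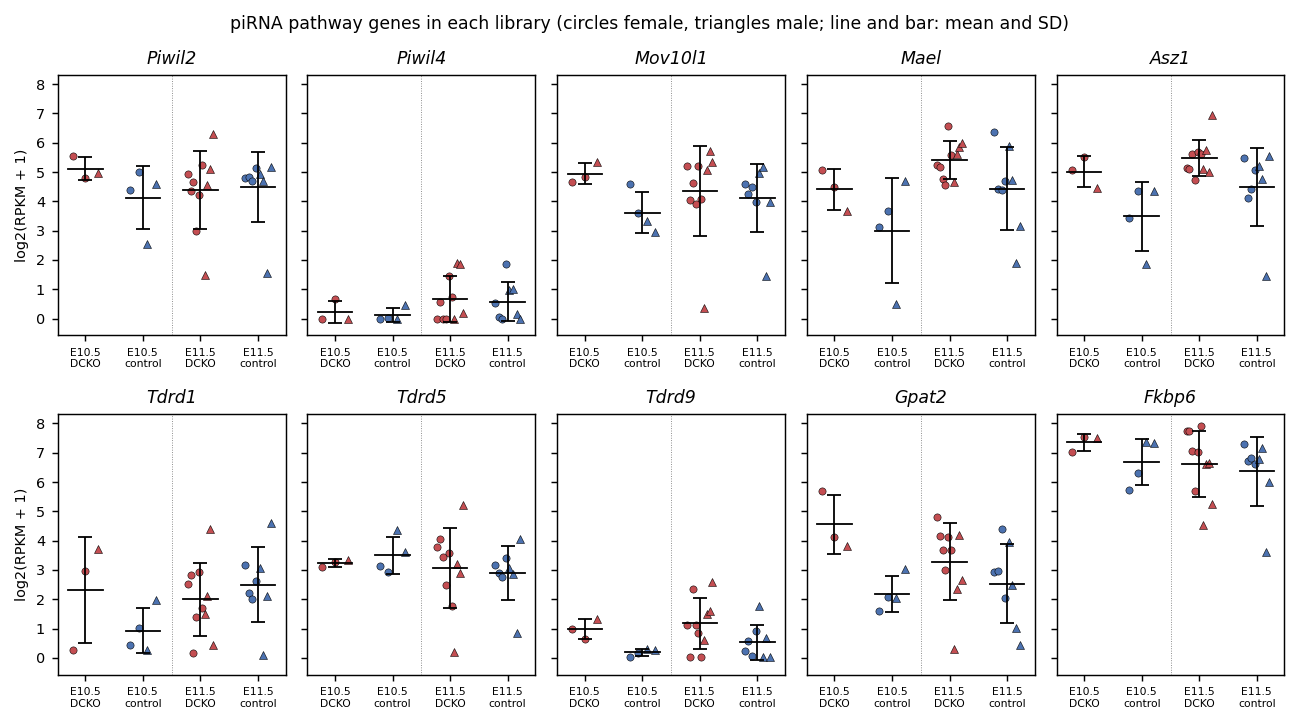
Level of each of the 10 genes in every library as log2(RPKM + 1), by stage and genotype, with circles for female and triangles for male libraries, and the mean and SD of each group. At E10.5 the 3 DCKO points of Gpat2, Asz1 and Mov10l1 lie above all 4 control points, as for 2.28% of all genes tested. Those of Tdrd9 also do, but it lies below the filter, where no such share was computed. At E11.5 the groups overlap for every gene.

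At E11.5 the count of estimates above 0 depended on single libraries. Of the 9 genes tested, 7 had estimates above 0, against 45% of all 12667 genes tested, and their median was 0.20, against -0.06 over all genes. The 7 include Tdrd9, which passed the filter only through its DCKO level. None of the 9 was called by limma, and 3 of all genes (0.0237%) were. Without adjustment 2 of the 9, Asz1 and Mael, had p under 0.05 and were higher in DCKO, against 1.73% of all genes. No gene of the 9 had every DCKO library above every control library, and 1 of all genes did (0.00789%). Without male control 3, 4 of the 9 had estimates above 0, against 48.9% of all genes, and the median was -0.16. Without male DCKO 4, when Tdrd9 fell below the filter, the count was 4 of 8. Without male DCKO 1 it was 8 of 9 with a median of 0.83. Without the 3 libraries of highest somatic marker level the count was 8 of 9, against 47.3% of all genes, and the median was 0.48.

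Asz1 ran from 25.6 to 121 RPKM in the 10 DCKO libraries (median 41.0) and from 1.74 to 46.0 RPKM in the 8 controls (median 29.3). Male DCKO 4 was far above the other DCKO libraries, male control 3 was far below the other controls, and the rest overlapped. The log2 difference was 1.00 ± 0.46 (SE; unadjusted p = 0.0412, adjusted p = 0.902 by limma). It was 0.54 without male control 3 and 0.70 without the 3 libraries. Mael ran from 22.5 to 93.3 RPKM in DCKO libraries (median 42.1) and from 2.69 to 82.0 RPKM in controls (median 22.6). Of the 8 controls, 4 lay below the DCKO range (female controls 2 and 3 and male controls 3 and 4). The log2 difference of Mael was 0.99 ± 0.47 (SE; unadjusted p = 0.0477, adjusted p = 0.902 by limma). It was 0.65 without male control 3 and 0.87 without the 3 libraries.

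Gpat2, the gene with the greatest estimate at E10.5, ran from 0.223 to 26.8 RPKM in E11.5 DCKO libraries (median 11.8) and from 0.354 to 20.01 RPKM in controls (median 5.63). The lowest values of both groups were close together, and the log2 difference was 0.61 ± 0.54 (SE). It was 0.45 without male control 3, 0.88 without the 3 libraries, and between 0.30 (without male DCKO 3) and 0.95 (without male DCKO 1) over all left-out libraries. Tdrd9 ran from 0.0145 to 4.98 RPKM in DCKO libraries (median 1.19) and from 0.0213 to 2.42 RPKM in controls (median 0.340). It reached 1 RPKM in 6 of 10 DCKO libraries and in 1 of 8 controls. The log2 difference was 0.71 ± 0.40 (SE), 0.72 without male control 3 and 0.86 without the 3 libraries.

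For the other genes the E11.5 estimates were small beside their errors. Mov10l1 ran from 0.277 to 51.3 RPKM in DCKO libraries (median 28.0) and from 1.77 to 34.9 RPKM in controls (median 19.96), with a log2 difference of 0.20 ± 0.63 (SE). Its estimate was -0.21 without male control 3, 0.48 without the 3 libraries and 0.83 without male DCKO 1. Fkbp6 ran from 22.3 to 242 RPKM in DCKO libraries (median 115) and from 11.3 to 156 RPKM in controls (median 106), with a log2 difference of 0.11 ± 0.44 (SE). It was -0.27 without male control 3 and 0.09 without the 3 libraries. The Tdrd5 estimate was 0.15 ± 0.57 and the Piwil2 estimate -0.09 ± 0.58 (SE). Without male control 3 Tdrd5 was at -0.16 and Piwil2 at -0.52, and without the 3 libraries Tdrd5 was at 0.36 and Piwil2 at 0.10. Piwil2 was uniform in 7 of the controls, at 25.02 to 35.2 RPKM, whereas male control 3 was at 1.94 RPKM. In DCKO it ran from 1.83 to 78.3 RPKM. Tdrd1 had the lowest estimate, -0.47 ± 0.61 (SE), with 0.112 to 19.9 RPKM in DCKO libraries and 0.0751 to 23.6 RPKM in controls. Its estimate was -0.53 without male control 3, -0.38 without the 3 libraries and -0.12 without male control 4. Piwil4 reached 1 RPKM in 3 of 10 DCKO and 2 of 8 control libraries and was listed at 0 in 4 DCKO and 2 control libraries.

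**Figure D2:**
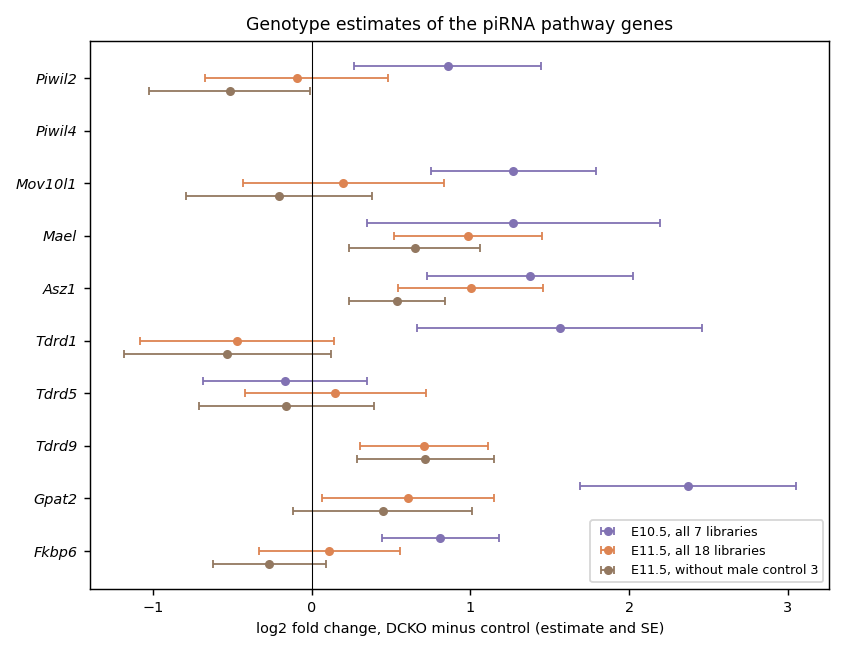
Estimated log2 fold change of DCKO minus control with its SE for each gene tested, at E10.5, at E11.5, and at E11.5 without male control 3. At E10.5 7 of 8 estimates are above 0, at E11.5 7 of 9, and without male control 3 4 of 9. Both E11.5 counts include Tdrd9, which passed the filter only through its DCKO level.

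Of the libraries that moved the E11.5 count or median when left out, male control 3 and male DCKO 1 also stood apart in their markers. Male DCKO 4, which moved the count as well, had a germ cell marker mean of 6.44. Its somatic marker mean, 0.41, was the lowest of the stage. Without female DCKO 4, which stood apart in its markers, the count was 8 of 9 and the median 0.26. Male control 3 had a summed level of the 10 genes of 25.3 RPKM, against 203 to 354 RPKM in the other 7 controls. Its germ cell markers summed to 387 RPKM and its somatic markers to 3162 RPKM. Male DCKO 1 had a sum of 84.5 RPKM and female DCKO 4 of 134 RPKM, against 274 to 407 RPKM in the other 8 DCKO libraries. Male DCKO 1 kept Asz1 at 33.1 RPKM and Mael at 24.4 RPKM, while Mov10l1 was at 0.277, Gpat2 at 0.223 and Tdrd5 at 0.150 RPKM. In male control 3 these 5 genes were all at or below 2.69 RPKM. The part of germ cell content in these values was not tested.

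**Figure D3:**
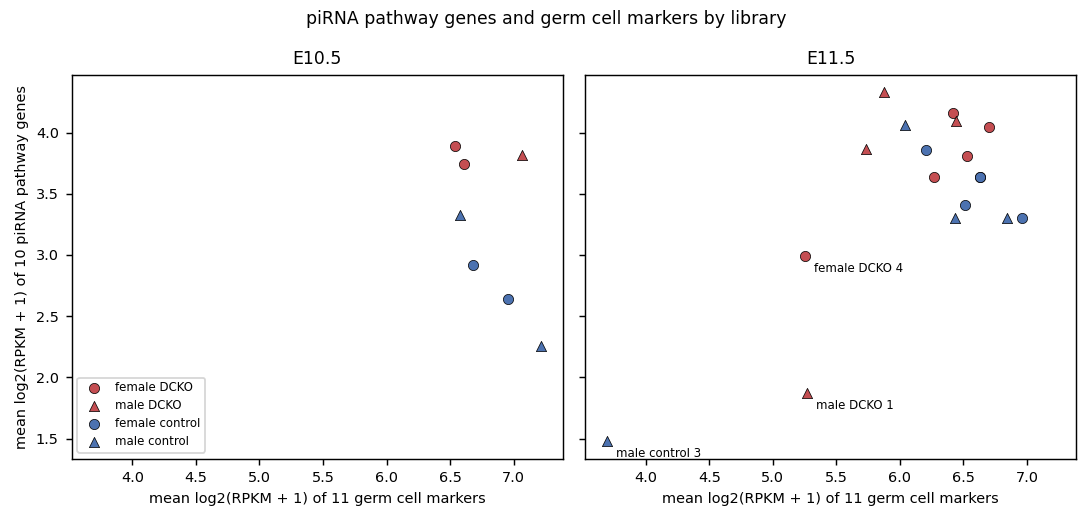
Mean log2(RPKM + 1) of the 10 genes against that of 11 germ cell markers, 1 point per library, for E10.5 and E11.5, with colour for genotype and shape for sex. At E10.5 the 3 DCKO libraries (3.74 to 3.89) are above the 4 controls (2.26 to 3.33) at overlapping marker levels, and at E11.5 the 3 named libraries lie low on both axes.

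**Figure D4:**
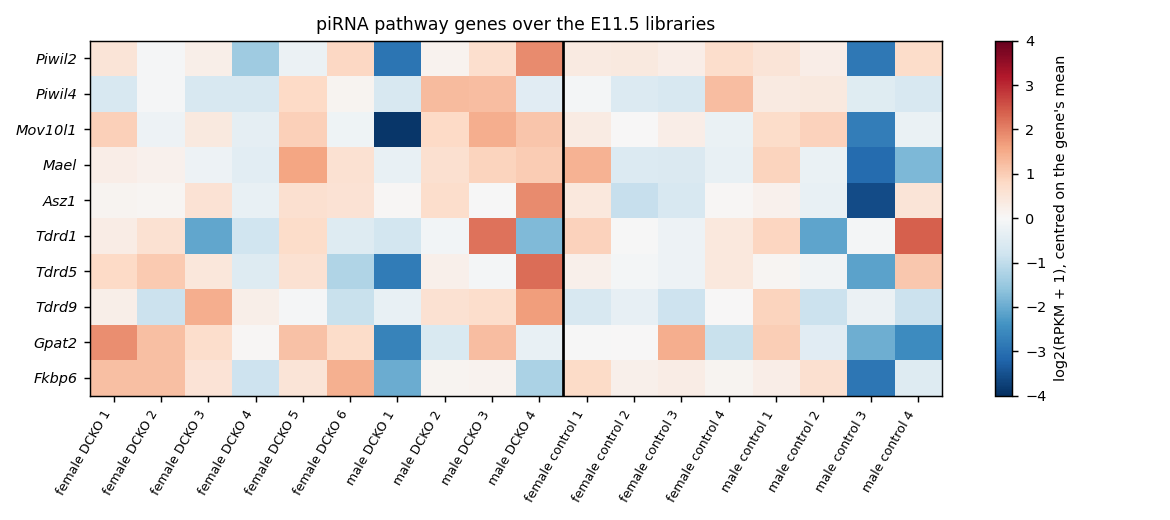
Each gene in each E11.5 library as log2(RPKM + 1) centred on the gene's mean, with DCKO libraries left of the line and controls right of it. Male control 3 is low for most genes, male DCKO 1 for Mov10l1, Piwil2, Tdrd5, Gpat2 and Fkbp6 but not for Asz1, and Tdrd1 is highest in male DCKO 3 and male control 4.

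The genes did not vary as 1 block over the 18 E11.5 libraries. Pearson's r of a gene with the mean of the other 9, on centred log2 values, ran from 0.88 in Mov10l1 and 0.80 in Piwil2 down to 0.22 in Tdrd9 and 0.07 in Tdrd1. Without male DCKO 1 and male control 3, the libraries farthest from the median, it was 0.63 for Mov10l1, 0.66 for Mael, 0.28 for Piwil2 and 0.01 for Fkbp6 over 16 libraries. Leaving out libraries chosen by this same profile narrows its range, which can by itself lower r. Tdrd9 averaged only 1.19 RPKM, near the filter. Over 8702 other genes that averaged 5 RPKM or more, the 6 most like the mean profile were Cct2 (r = 0.90), Hat1, Cpeb1, Dppa3, Psma3 and Cops7a (0.87). Cct2 encodes a chaperonin subunit, Hat1 a histone acetyltransferase, Cpeb1 an RNA-binding protein of germ cells, and Dppa3 a PGC marker. Psma3 encodes a proteasome subunit and Cops7a a COP9 signalosome subunit. Without the same 2 libraries Cpeb1 had r = 0.79 and Cct2 0.78, and Psma3 had 0.42. The libraries differ in genotype, sex and germ cell marker level, so the values describe likeness only.

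Fkbp6 had the highest mean everywhere, at 165 ± 30.4 RPKM over the 3 E10.5 DCKO libraries and 113 ± 56.1 RPKM over the 4 E10.5 controls (mean and SD). Over the E11.5 libraries it averaged 123 ± 77.1 RPKM in the 10 DCKO and 99.0 ± 45.2 RPKM in the 8 control libraries. For this order of genes, a range is taken from the mean minus the SD to the mean plus the SD. In both E10.5 groups the range of Fkbp6 did not overlap that of Piwil2, the next gene. Below it Piwil2, Asz1, Mov10l1 and Mael overlapped the gene next in order in every group, except that Mael did not overlap Tdrd5 in E10.5 DCKO. Gpat2 had rank 5 of 10 in E10.5 DCKO and rank 7 in E10.5 controls. Mael had rank 6 in both E10.5 groups, and at E11.5 rank 3 in DCKO and rank 2 in controls. Piwil2 had rank 2 in both E10.5 groups and rank 4 in both E11.5 groups. Tdrd9 and Piwil4 were the lowest pair at both stages, and their ranges overlapped. The stages come from tables that may have been normalized separately, so they were not tested against each other. Tests at both stages covered 8 genes, and 5 of them had an estimate above 0 each time (Mov10l1, Mael, Asz1, Gpat2 and Fkbp6). The share of all genes with such a pair of estimates was not computed, so this count has no background. For Mov10l1 and Fkbp6 the later estimate fell below 0 in 3 of 30 alternatives each. Leaving out male control 3 was 1 of these, with -0.21 for Mov10l1 and -0.27 for Fkbp6. Mael, Asz1 and Gpat2 stayed above 0 in every alternative.

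Sexes were compared at E11.5. In females 7 of 9 estimates were above 0, against 47.8% of all genes, with a median of 0.34, and 0 of 9 were called, against 0.00789% of all genes. None had unadjusted p under 0.05 and a higher DCKO level, against 0.553% of all genes. The female estimate was 0.35 ± 0.63 for Mael and 0.55 ± 0.62 for Asz1 (SE). In males 7 of 9 were above 0, against 43.6% of all genes, with a median of 0.27, and 0 of 9 were called, against 0.0316% of all genes. Mael (1.63 ± 0.69) and Asz1 (1.45 ± 0.68, SE) had unadjusted p under 0.05 in males, against 2.74% of all genes. Their adjusted p was 0.672 and 0.715 by limma. Without male control 3 the male estimates were 0.95 for Mael and 0.53 for Asz1, and without the 3 libraries 1.24 and 0.73. None of the 9 kept unadjusted p under 0.05 in males in either case, with library weights, or with male libraries alone. Without male control 3 the male count was 4 of 9. The test of the difference between the sexes (female minus male effect) called 0 of 9 genes and 0% of all genes, and none of the 9 had unadjusted p under 0.05. Its estimate was -1.28 ± 0.93 for Mael and -0.90 ± 0.91 for Asz1 (SE), and -0.60 and 0.02 without male control 3. Among controls, female minus male estimates were above 0 for 8 of 9 genes, against 53.4% of all genes. None of the 9 was called, none had unadjusted p under 0.05, and 0.00789% of all genes were called. Without male control 3 the count above 0 was 3 of 9.

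Libraries also carry a number in their titles whose meaning the labels do not give. Within a number shared by both genotypes at E10.5, 6 of the 8 genes tested had a higher mean log2 value in DCKO for number 58, against 44.1% of all genes tested, and 7 of 8 for number 67, against 46.9%. At E11.5 the counts of the 9 genes tested were 6 for number 85 (49.6% of all genes), 7 for 87 (45.9%), 8 for 89 (42.8%), 7 for 90 (44.7%) and 7 for 92 (47.8%). The number 90 set holds male control 3 and female DCKO 4, and between its 2 female libraries 3 of 9 were higher in DCKO, against 47.3% of all genes.

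Other genes of the pathway were read from a list of 21, of which 20 had a row and 15 were tested at each stage. At E10.5 10 of 15 had estimates above 0, against 46.8% of all genes, with a median of 0.64. None of the 15 was called, against 0% of all genes, and 1 (Stk31) had unadjusted p under 0.05 and a higher DCKO level, against 1.49%. In 2 of the 15, Stk31 and Tdrd7, every DCKO library was above every control, against 2.28% of all genes. Stk31, a Tudor domain kinase, had 37.1, 31.9 and 27.2 RPKM in DCKO libraries and 9.42, 23.6, 8.69 and 17.4 RPKM in controls. The log2 difference of Stk31 was 1.12 ± 0.49 (SE). Tdrd7, another Tudor protein of germ granules, had 1.19 to 13.1 RPKM in DCKO libraries and 0.0804 to 1.05 RPKM in controls. Its lowest DCKO library, male DCKO 1, lay just above the highest control. The log2 difference of Tdrd7 was 1.70 ± 0.78 (SE). Tdrd7 averaged 6.18 RPKM in DCKO and 0.602 RPKM in controls, and so passed the filter only through its DCKO level. The filter thus favoured its higher estimate and its lack of overlap. Pnldc1, the piRNA-trimming nuclease, had an estimate of 1.29 ± 0.62, and Gtsf1, a zinc finger partner of PIWI proteins, of 1.37 ± 0.75 (SE). Gtsf1 too passed the filter only through its DCKO level. It was at 2.76 and 7.81 RPKM in female DCKO libraries, at 0 in male DCKO 1 and at most 0.260 RPKM in controls. Tdrd7 and Gtsf1 are both among the 10 estimates above 0. The lowest estimate was that of Wdr77, a cofactor of the arginine methyltransferase Prmt5, at -0.92 ± 0.59 (SE).

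At E11.5 8 of the 15 had estimates above 0, a share near the 45% of all genes, with a median of 0.23. None was called, against 0.0237% of all genes, and 2 had unadjusted p under 0.05 and a higher DCKO level, against 1.73%. They were Ddx4, the germ cell helicase also called Vasa, and Rnf17, a Tudor protein. Ddx4 ran from 31.5 to 130 RPKM in DCKO libraries (median 55.7) and from 4.92 to 75.1 RPKM in controls (median 41.5). Male controls 3 and 4 were far below the DCKO range, and female control 2 was just below it. The log2 difference was 0.94 ± 0.40 for Ddx4 and 0.72 ± 0.34 for Rnf17 (SE; adjusted p = 0.902 by limma for both). Without male control 3 the estimates were 0.61 for Ddx4 and 0.45 for Rnf17, and without the 3 libraries 0.61 and 0.62. In females Ddx4 had 0.09 ± 0.54 and Rnf17 0.24 ± 0.46 (SE), and in males 1.79 ± 0.59 and 1.19 ± 0.50. The sex difference of the Ddx4 effect was -1.70 ± 0.80 (SE; unadjusted p = 0.0468, adjusted p = 0.995 by limma), and -1.05 without male control 3 (unadjusted p = 0.131). Tdrd7 and Tex15, a nuclear silencing factor, followed with 0.78 ± 0.51 and 0.52 ± 0.39 (SE).

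**Figure D5:**
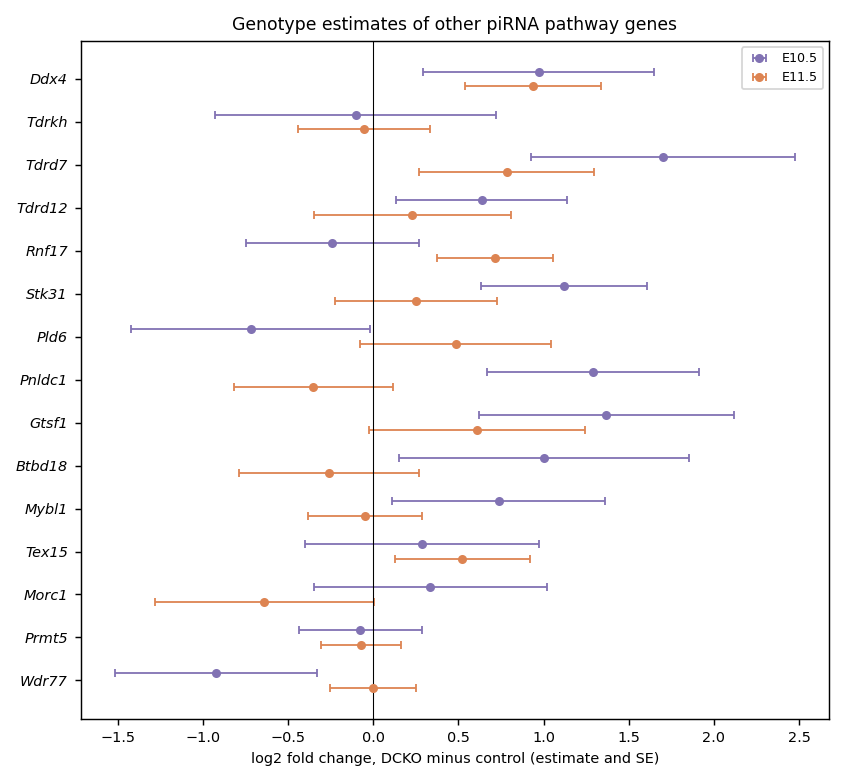
Estimated log2 fold change of DCKO minus control with its SE for 15 other pathway genes at E10.5 and E11.5. At E10.5 10 of 15 estimates are above 0 and at E11.5 8 of 15, and no gene passed adjusted p under 0.05. Tdrd7 and Gtsf1 passed the E10.5 filter only through their DCKO level.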

How the data were processed

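The authors deposited 1 table of RPKM per stage, with a column per library and 24318 genes. The submitters' processing notes name build mm9, TopHat2 2.1.0, Cufflinks 2.2.1 and Cuffdiff, without their roles. RPKM carries no counts, so depth is not known, and an exact 0 may be a failed estimate. Libraries were grouped by stage, sex and genotype in the labels. Tests used limma 3.58.1 in R 4.3.3 and a mean-variance trend. Values entered as log2(RPKM + 1), which understates changes of low genes, and genes had to average 1 RPKM or more. At E11.5 female and male genotype differences were averaged with equal weight. At E10.5 genotype and sex were additive. All p-values are two-sided. The fit was tested on simulated data.

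The 10 genes and all lists were chosen with earlier results of these data known. Named beside them were up to 4 other pathway genes per comparison with the smallest p and the 6 genes most like the mean profile. Wdr77, the lowest other gene at E10.5, was picked with its value in view. The alternatives covered pseudocounts, filters, scalings, library weights, blocks and left-out libraries.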

Additional observations from a re-analysis of the deposited data

Results flagged for a closer look

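Within groups of 4 to 10 libraries, 30 sets of values were looked at for a library far from the others, and 8 stood apart, where chance gives about 1 in 20. Of these, 5 were male control 3 among the 8 E11.5 controls. Its level was 1.94 RPKM for Piwil2 (25.02 to 35.2 RPKM in the others), 1.77 RPKM for Mov10l1 (14.7 to 34.9) and 1.74 RPKM for Asz1 (16.3 to 46.0). It was 0.795 RPKM for Tdrd5 (5.81 to 15.7) and 11.3 RPKM for Fkbp6 (62.7 to 156). The same library had the lowest germ cell marker level and the highest somatic marker level of the stage, and the part of this in its values was not tested. Among E11.5 DCKO libraries, male DCKO 1 had 0.277 RPKM of Mov10l1, against 13.9 to 51.3 RPKM in the others, and male DCKO 4 had 121 RPKM of Asz1, against 25.6 to 52.7 RPKM. At E10.5 male control 2 had 0.379 RPKM of Piwil4, against 0 to 0.0254 RPKM in the other controls.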

How the results depend on the processing

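None of the 10 genes was called in any comparison under any alternative run. At E10.5 every alternative kept 6 to 9 estimates above 0, of 7 to 10 genes tested, with medians of 0.93 to 1.44. At E10.5 the count of all genes called ran from 0 to 11 when 1 library was left out, and was 1 without male control 2, the library with the highest mean log2 somatic marker level (by summed RPKM it was male DCKO 1). Tdrd5 at E10.5 was -0.29 to 0.14 with 1 library left out, 0.12 with library weights and 0.00879 with a title number block. At E11.5, leaving out 1 library gave 4 to 8 genes above 0, 2 to 5 of all genes called, and estimates of -0.52 to 0.38 for Piwil2, -0.21 to 0.83 for Mov10l1, -0.24 to 0.60 for Tdrd5 and -0.27 to 0.32 for Fkbp6. Piwil2 was 0.0391 with quantile normalization, 0.14 with a title number block, 0.10 without the 3 libraries of highest somatic markers and 0.0441 with the germ cell marker mean as a covariate, which was chosen after seeing the data. Library weights gave 5 genes called, 0.12 for Tdrd1, and sex differences of 0.12 for Mael and 0.00678 for Asz1. A pseudocount of 0.1 gave -9.37e-05 for Tdrd5. In females, all genes called were 1 to 2 with 1 library left out, 2 with a pseudocount of 0.1, no filter, the replicate block or female libraries alone, and 4 with library weights. In males they were 1 to 4, 2 with the replicate block, and 1 with the title number block or without the 3 libraries. Male genes above 0 were 4 to 8, with a median of -0.44 to 1.23. The sex difference called 0 to 1 genes, 1 with the replicate block, and was -1.34 to 0.0241 for Asz1. In controls, females against males gave 1 to 2 genes called, 2 with no filter or without the 3 libraries, 22 with library weights and 0 with the title number block. The count above 0 there was 3 to 9 with 1 library left out, 4 with library weights, and 3 without the 3 libraries or with the marker covariate. The causes were not tested. By the check, in which every pair needed r over 0.1, samples of the same sex and replicate number were not treated as paired: at E11.5 2 of 8 such pairs passed it. Of pairs with the same title number 6 of 13 did (median r 0.077, highest 0.49), and of pairs with other title numbers 5 of 67 (median r -0.005). The check does not show that libraries sharing a title number are independent. With the title number block at E11.5 the median of the 9 genes was 0.55, 8 were above 0, and the unadjusted p was 0.0697 for Asz1 and 0.0547 for Mael. With the replicate block the female estimate of Mael was -0.0325. Depth is unknown, and over all libraries of a stage Piwil4 averaged under 1 RPKM at both stages and Tdrd9 at E10.5.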
